A study of Mus musculus with 15 samples.

Results

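Interferon-stimulated genes are the genes that cells switch on when interferon, a signal of viral infection, reaches them. The 52 genes described here were chosen by name from this class, with earlier results of these data known. All 52 were found among the 55487 genes of the count table. They fall into RNA sensors (5), transcription factors (4), the OAS family (6), the IFIT family (4), the IFITM family (3), the ISG15 system with ubiquitin ligases (5), a PARP and DTX3L group (4), GBP and IRG GTPases (6), Mx GTPases and other antiviral effectors (9) and 6 other members.

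Type I interferons bind a receptor made of IFNAR1 and IFNAR2, and the kinases JAK1 and TYK2 then phosphorylate STAT proteins, STAT2 among them. With IRF9, STAT2 is part of a complex that binds a promoter element called ISRE, whereas interferon gamma acts mainly through an element called GAS. Fibroblasts make interferon beta when RNA or DNA is sensed in the cytosol, and they also keep a low resting level of many of these genes.

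The study asked how the nuclear deacylase SIRT7 affects dosage compensation of the X chromosome in mouse cells. Poly(A) RNA was sequenced from TTF cells, the usual abbreviation of tail-tip fibroblasts, of female C57BL6/CAST hybrid mice. Of 15 samples in the labels, 6 libraries had values here: 3 of the genotype labelled S7WT_TTF (WT 1, WT 2 and WT 3) and 3 labelled SIRT7-KO, whose columns carry the numbers 2, 9 and 22 (KO 2, KO 9 and KO 22). The labels hold 2 sets of samples of that genotype, and the column names do not settle which set KO 2, KO 9 and KO 22 belong to. Whether they were prepared together with the WT libraries is therefore not known here, and genotype cannot be told apart from a difference in preparation. The other 9 samples were not analysed here. The labels name no treatment, age or passage for either group. They do not say that the libraries of a group came from separate cultures or animals, so p-values measure the spread between these libraries. In WT that spread may be technical. The KO libraries also differed from each other in the parental shares of whole chromosomes, as given below.

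Library totals ran from 61065582 to 61506413 counts, so counts of a gene can be read across libraries almost as they stand. The spread within groups was unequal, with a biological coefficient of variation of 0.136 in WT and 0.378 in KO. The WT libraries had 833, 1107 and 598 counts of Sirt7 itself, which overlapped the 512, 694 and 787 counts of KO 2, KO 9 and KO 22. Its full-length coding transcript Sirt7-201 was estimated at 53, 58 and 159 counts in WT but only at 2, 0 and 0 in KO, so the estimate for that transcript followed the labels while the gene total did not. All 10 fibroblast markers were detected. Their summed level was 15750 to 16000 CPM (counts scaled to a library total of 1000000) in WT and 26020 to 34570 in KO, and Col1a1, Col1a2 and Col3a1 passed as higher. The fibroblast surface markers differed between the knockout libraries in more than one way, and the 4 named here were chosen after their values were seen. Pdgfra had 4189, 4670 and 4518 counts in WT but 578, 698 and 4975 in KO 2, 9 and 22, and Thy1 had 6170, 6058 and 6086 against 1319, 12 and 4375. Pdgfrb, with 14563, 14253 and 14516 against 13975, 13765 and 14329, did not separate the knockout libraries. The matrix gene Dcn, with 8070, 7224 and 7836 against 11871, 1010 and 8868, was low in KO 9 alone.

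As a group the interferon-stimulated genes were higher in the knockout libraries, and mainly in 2 of the 3. With edgeR's quasi-likelihood test across 16678 genes, 45 of the 52 had enough counts to be tested. Of these, 11 rose and 0 fell at a Benjamini-Hochberg adjusted p under 0.05, and 34 did not pass. Over all tested genes 3.54% rose and 3.19% fell. The 11 were Isg20, Ifit3, Ifit3b, Ifi27, Ifit1, Cxcl10, Ifih1, Oasl1, Irgm1, Ifitm3 and Parp12. In GRCm38 they lie at chr7:78913424-78920396 (Isg20, + strand), chr19:34583531-34588731 (Ifit3, + strand), chr19:34607970-34613401 (Ifit3b, + strand), chr12:103434211-103440239 (Ifi27, + strand), chr19:34640871-34650009 (Ifit1, + strand), chr5:92346638-92348889 (Cxcl10, - strand), chr2:62595798-62646255 (Ifih1, - strand), chr5:114923240-114937915 (Oasl1, + strand), chr11:48861968-48871683 (Irgm1, - strand), chr7:141009586-141010770 (Ifitm3, - strand) and chr6:39086410-39118349 (Parp12, - strand). The median log2 fold change was 1.16 over the 45 tested members, beside 0.015 over all tested genes, and 41 members had a positive value against 4 with a negative one. In bulk RNA, a change in the share of responding cells and a change in RNA per cell cannot be told apart. A low-count gene could enter the test through the knockout libraries alone, so these counts describe the tested members and not the other 7, which are Oas1a, Oas2, Oas3, Trim30a, Gbp7, Iigp1 and Mx1. With no filter all 52 were tested, 3 rose (Isg20, Ifit3 and Ifit3b) beside 0.668% of all genes, 0 fell, and the median was 1.42.

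The number of calls rested on single libraries. Without WT 1, WT 2 or WT 3 the same test called 0 members, and it called few genes of any kind, 0.296%, 0.262% and 0.291% of those tested. An unadjusted p under 0.05 was then seen for 26, 27 and 27 of 52 members, beside 16.7%, 17.5% and 16.9% of all tested genes. Without KO 22 it called 36 of 52, all higher, beside 7.6% of all tested genes that were called higher. The runs without a WT library and without KO 22 also tested the 7 members under the main filter. Those were low in WT and entered through KO 2 and KO 9, where they were high, so the counts out of 52 include genes selected that way. With all libraries DESeq2 called 28 higher and 1 lower, beside 7.48% and 6.78% of the genes to which it gave an adjusted p.

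**Figure D1:**
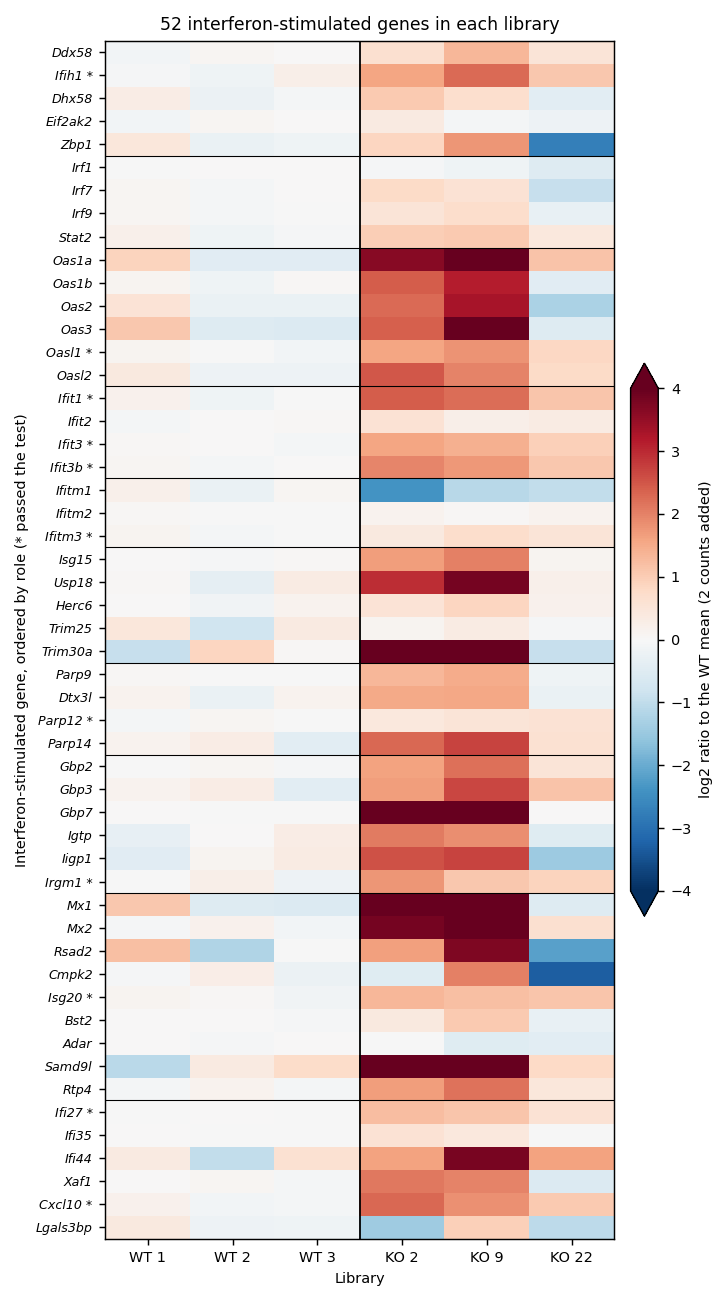
Each row is 1 of the 52 genes, ordered by role, and each column a library; colour gives the log2 ratio of CPM to the mean of the 3 WT libraries, with 2 counts added, and the scale saturates at -4 and 4. KO 2 and KO 9 are red for most rows, and KO 22 is red for the IFIT genes, Isg20, Irgm1, Cxcl10 and Ifih1 but blue for Zbp1, Cmpk2 and Rsad2.

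The knockout libraries differed among themselves. Over all 52 genes the median log2 ratio to the WT mean was 1.58 in KO 2, 1.78 in KO 9 and 0.12 in KO 22. Over all tested genes it was -0.002, -0.031 and -0.058. At least 2-fold the WT mean was reached by 33 genes in KO 2, 37 in KO 9 and 9 in KO 22. KO 9 was the highest of all 6 libraries for 30 genes, KO 2 for 16 and KO 22 for 2. The 2-fold counts and these counts were not made over all tested genes, so they describe the members only.

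**Figure D2:**
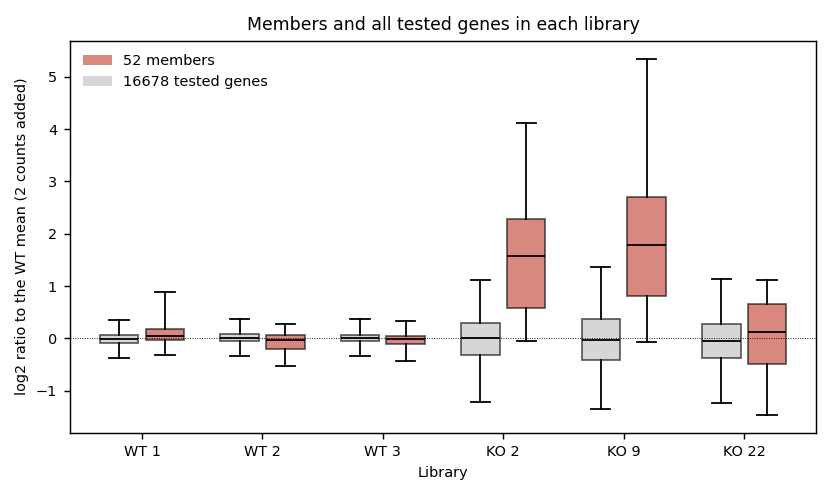
Box plots of the log2 ratio to the WT mean (2 counts added) in each library, for the 52 members in red and 16678 tested genes in grey; boxes span the quartiles, lines mark medians and whiskers the 5th to 95th percentile. The red boxes of KO 2 and KO 9 have medians of 1.58 and 1.78, and that of KO 22 has 0.12.

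Set against the range of the 3 WT libraries, 39 of the 45 tested members were above it in KO 2 (all tested genes 37.9%), 40 in KO 9 (38.4%) and 25 in KO 22 (34.1%). In KO 22, 17 tested members were below the WT range, beside 44.3% of all tested genes. Every knockout library was above every WT library for 25 tested members, beside 15.7% of all tested genes. The reverse held for 2, beside 20.2%. Of all 52, 26 were above WT in all 3 knockout libraries, and 13 were above it in KO 2 and KO 9 but below it in KO 22. Another 6 were above it in KO 2 and KO 9 and within it in KO 22. Of all 52 members these patterns were counted, but not of all genes, so whether they are particular to the members is not known here. Each knockout column is 1 library, so the difference between KO 22 and the others has no test.

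Among the sensors of viral RNA, Ifih1, which encodes the long double-stranded RNA sensor MDA5, had 164, 153 and 202 counts in WT and 518, 841 and 366 in KO 2, 9 and 22. All 3 knockout libraries were above WT, and Ifih1 rose with a log2 fold change of 1.76 (SE 0.32, adjusted p = 0.0325). Ddx58, which encodes RIG-I, had 474, 549 and 522 against 802, 1306 and 739 counts; the groups did not overlap, and it did not pass (0.91, SE 0.23, adjusted p = 0.0687). Dhx58, the regulator LGP2 of both sensors, had 197, 137 and 153 against 333, 260 and 120 counts, with KO 22 lowest. Eif2ak2, the RNA-activated kinase PKR, had 2068 to 2395 counts in WT and 1931 to 2848 in KO and did not pass (0.07, SE 0.15, adjusted p = 0.819). Zbp1, a sensor of Z-form nucleic acid, had 9 to 16 counts in WT, 22 and 43 in KO 2 and KO 9, and 0 in KO 22.

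None of the 4 transcription factors passed in edgeR. An unadjusted p under 0.05 was reached by 1 of them, near the 26.3% of all tested genes, and DESeq2 called 1 higher. Stat2 came nearest with 782, 615 and 672 counts in WT and 1365, 1431 and 923 in KO (0.87, SE 0.20, adjusted p = 0.0510). Its groups did not overlap. Irf9, the DNA-binding subunit of the ISRE complex, had 722 to 808 counts in WT, 1096 and 1241 in KO 2 and KO 9, and 624 in KO 22. Irf7, which amplifies interferon alpha production, had 86 to 94 counts in WT, 154 and 135 in KO 2 and KO 9, and 47 in KO 22. Irf1, a factor induced mainly by interferon gamma, was lower in every knockout library, with 3356, 3435 and 3465 counts against 3294, 3026 and 2411. That difference did not pass (-0.20, SE 0.12, adjusted p = 0.344).

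The IFIT proteins bind viral RNA ends and block its translation, and their genes lie side by side on chromosome 19. Of 4 members, 3 rose. Ifit1 (chr19:34640871-34650009, + strand, GRCm38) had 328, 260 and 291 counts in WT and 1563, 1396 and 635 in KO 2, 9 and 22. All 3 knockout libraries were above WT and KO 22 was the lowest of them, and the log2 fold change was 2.06 (SE 0.34, adjusted p = 0.0250). Ifit3 had 260, 260 and 244 counts in WT and 761, 685 and 495 in KO (1.38, SE 0.19, adjusted p = 0.0167). Ifit3b had 90, 80 and 86 against 334, 286 and 181 counts (1.67, SE 0.26, adjusted p = 0.0227). Reads of these close copies can be split between them, since their main transcripts were identical at 1663 of 1697 aligned bases. With both genes summed, the log2 fold change was 1.46 (adjusted p = 0.0154). Ifit2 had 1455, 1553 and 1583 counts against 2290, 1806 and 1910, without overlap, and did not pass (0.42, SE 0.12, adjusted p = 0.0846).

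The promoters of the 6 members with the smallest p that have an entry in the promoter table are shown because these genes moved together in all 3 knockout libraries. Each line gives the 250 bases before the start of transcription, 5′ to 3′ on the gene's strand, from RefSeq (GRCm38.p6). Capitals mark every match to the ISRE core GAAANNGAAA or its reverse complement TTTCNNTTTC. The windows are chr7:78913515-78913764 (+ strand) for Isg20, chr19:34583279-34583528 (+ strand) for Ifit3, chr19:34607707-34607956 (+ strand) for Ifit3b, chr19:34640639-34640888 (+ strand) for Ifit1, chr5:92348890-92349139 (- strand) for Cxcl10 and chr2:62646256-62646505 (- strand) for Ifih1.
Isg20: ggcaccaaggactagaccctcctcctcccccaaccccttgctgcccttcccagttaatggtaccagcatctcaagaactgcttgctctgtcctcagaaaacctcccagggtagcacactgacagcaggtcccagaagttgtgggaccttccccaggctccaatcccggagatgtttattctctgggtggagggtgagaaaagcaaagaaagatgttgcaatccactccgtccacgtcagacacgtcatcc
Ifit3: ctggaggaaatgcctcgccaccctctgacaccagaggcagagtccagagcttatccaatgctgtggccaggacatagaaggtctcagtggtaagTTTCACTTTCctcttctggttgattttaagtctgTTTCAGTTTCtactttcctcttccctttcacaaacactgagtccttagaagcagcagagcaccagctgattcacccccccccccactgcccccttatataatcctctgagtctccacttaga
Ifit3b: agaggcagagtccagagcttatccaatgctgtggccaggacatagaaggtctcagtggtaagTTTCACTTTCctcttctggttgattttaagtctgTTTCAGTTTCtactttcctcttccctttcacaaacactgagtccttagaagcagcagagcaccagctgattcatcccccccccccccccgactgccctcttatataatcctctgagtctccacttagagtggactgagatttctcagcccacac
Ifit1: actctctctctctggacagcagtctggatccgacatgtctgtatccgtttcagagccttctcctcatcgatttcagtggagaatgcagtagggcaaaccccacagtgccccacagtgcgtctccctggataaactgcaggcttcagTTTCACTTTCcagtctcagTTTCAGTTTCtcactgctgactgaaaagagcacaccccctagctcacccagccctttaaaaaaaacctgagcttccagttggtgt
Cxcl10: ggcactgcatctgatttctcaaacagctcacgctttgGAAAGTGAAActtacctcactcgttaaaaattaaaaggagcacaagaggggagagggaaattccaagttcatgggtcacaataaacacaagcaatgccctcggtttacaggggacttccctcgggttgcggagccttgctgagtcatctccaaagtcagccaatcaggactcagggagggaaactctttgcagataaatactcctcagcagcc
Ifih1: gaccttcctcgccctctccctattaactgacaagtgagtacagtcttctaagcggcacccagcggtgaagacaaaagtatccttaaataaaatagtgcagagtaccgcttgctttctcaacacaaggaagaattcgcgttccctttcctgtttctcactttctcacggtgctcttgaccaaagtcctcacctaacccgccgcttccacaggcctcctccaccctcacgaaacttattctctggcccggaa

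Ifit3, Ifit3b and Ifit1 each held 2 matches, the nearer of which ended 113, 145 and 76 bases before the start. Cxcl10 held 1 that ended 204 bases before it. Isg20 held none in any of its 3 windows, and the single match of Ifih1 lay in the 50 bases after the start, outside the stretch shown. The Ifit3 and Ifit3b stretches were identical at 216 of 218 aligned bases, with 64 bases facing a gap.

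Of the 52 members, 40 have an entry in the RefSeq promoter table. Over the window from 250 bases before to 50 bases after the start, the ISRE core occurred on either strand in 21 of these 40 genes (52.5%) and in 1079 of all 27025 genes (3.99%). The GAS core TTCNNNGAA, which reads the same on both strands, occurred in 11 of the 40 (27.5%) and in 2582 of all genes (9.55%). Matches of the 2 cores overlapped in 2 of 49 member windows. The 21 genes with an ISRE core had median log2 ratios to WT of 1.66 in KO 2, 1.86 in KO 9 and 0.52 in KO 22. For the 19 without one the medians were 0.58, 0.85 and -0.03. Of the former, 17 were tested and 7 rose, and of the latter 19 were tested and 3 rose. A match to these letters is a description and not a binding site. Members with no entry were Zbp1, Dhx58, Oas1b, Oas2, Usp18, Parp9, Parp14, Iigp1, Mx1, Mx2, Rtp4 and Ifi27.

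The OAS enzymes make short adenylate chains that activate the antiviral ribonuclease RNase L, and the OAS-like proteins Oasl1 and Oasl2 carry ubiquitin-like domains. Oasl1 had 84, 77 and 73 counts in WT and 235, 278 and 141 in KO 2, 9 and 22, and it rose with a log2 fold change of 1.51 (SE 0.29, adjusted p = 0.0346). The call was lost without KO 2 and without KO 9. Oasl2 had 110, 72 and 72 against 471, 338 and 141 counts, also without overlap, and did not pass (1.92, SE 0.45, adjusted p = 0.0579). Oas1b had 26, 21 and 25 against 137, 225 and 17 counts, so KO 22 was below WT. Oas1a, Oas2 and Oas3 fell under the filter with 148, 75 and 78 counts over 6 libraries. Their counts were 3, 0, 0, then 32, 109, 4 for Oas1a, 5, 2, 2, then 21, 45, 0 for Oas2 and 4, 0, 0, then 13, 61, 0 for Oas3.

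IFITM proteins sit in membranes and hinder virus entry. Ifitm2 and Ifitm3 had the highest resting levels of all members, at 364 and 144 CPM per kilobase of exon in WT. Ifitm3 had 6369, 5686 and 5909 counts in WT and 7887, 9672 and 8554 in KO, and it rose by a small amount (0.57, SE 0.11, adjusted p = 0.0358). Ifitm2 had 14975, 14364 and 14468 against 15855, 15162 and 15956 counts, a log2 fold change of 0.13 (SE 0.08) that did not pass. Ifitm1 went the other way, with 166, 122 and 153 counts in WT and 26, 67 and 73 in KO. Every knockout library was below every WT library, and the log2 fold change of -1.37 (SE 0.41) did not pass in edgeR (adjusted p = 0.0975). It passed in DESeq2 (adjusted p = 0.0172).

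ISG15 is a ubiquitin-like protein that is attached to others after induction, USP18 removes it and restrains the receptor, and HERC6 is its mouse ligase. None of these 5 genes passed in edgeR, 3 had an unadjusted p under 0.05 (all tested genes 26.3%), and DESeq2 called 2 higher. Isg15 had 398, 378 and 404 counts in WT and 1255, 1583 and 423 in KO 2, 9 and 22. KO 22 was above WT by 1.08-fold, whereas KO 2 and KO 9 were 3.20-fold and 4.02-fold the WT mean. Isg15 did not pass (1.49, SE 0.44, adjusted p = 0.0921). It passed when KO 22, its lowest knockout library, was left out (1.87, adjusted p = 0.00365). Usp18 had 26, 19 and 32 against 208, 384 and 29 counts, with KO 22 inside the WT range (3.03, SE 0.85, adjusted p = 0.0836). Herc6 had 255 to 306 counts in WT and 312 to 506 in KO (0.58, SE 0.21). Trim25, a ligase that acts on RIG-I, had a log2 fold change of 0.07 (SE 0.33), and Trim30a, an inhibitor of inflammatory signalling, fell under the filter with 0, 5 and 2 against 66, 208 and 0 counts.

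PARP enzymes attach ADP-ribose to proteins, and DTX3L is the ubiquitin ligase partner of PARP9. Parp12 had 1009, 1125 and 1050 counts in WT and 1403, 1514 and 1586 in KO, and here KO 22 was the highest library. It rose by 0.54 on the log2 scale (SE 0.11, adjusted p = 0.0439), a call lost without KO 9 (adjusted p range over the alternatives 0.00272 to 0.204). Parp14 had 66, 74 and 44 against 298, 401 and 92 counts (2.13, SE 0.54, adjusted p = 0.0669). Parp9 had 210 to 221 counts in WT, 535 and 608 in KO 2 and KO 9, and 188 in KO 22. Dtx3l had 110 to 148 counts in WT, 382 and 398 in KO 2 and KO 9, and 110 in KO 22. Their exons share 458 bases on opposite strands, and whether the counting used strand was not given, so the 2 genes are not independent.

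The GBP and IRG GTPases attack the vacuoles of intracellular pathogens. Irgm1, a regulator of the other IRG proteins, had 425, 513 and 375 counts in WT and 1461, 928 and 804 in KO, and rose by 1.31 on the log2 scale (SE 0.25, adjusted p = 0.0355). Gbp3 had 33, 37 and 22 against 99, 202 and 68 counts (2.03, SE 0.46, adjusted p = 0.0523). Gbp2 had 64, 69 and 64 against 203, 311 and 95 (1.65, SE 0.42, adjusted p = 0.0672). Both were above WT in all 3 knockout libraries without passing. Igtp had 66, 85 and 103 counts in WT, 359 and 308 in KO 2 and KO 9, and 59 in KO 22. Its exons share 162 bases with Irgm2 on the same strand. Under the filter were Iigp1, with 2, 4 and 5 against 30, 34 and 0 counts, and Gbp7, with 0, 0 and 0 against 33, 33 and 0. Against a floor of 3 counts over the 3 WT libraries, Gbp7 was at least 22-fold higher over the KO group, and this came from KO 2 and KO 9.

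**Figure D3:**
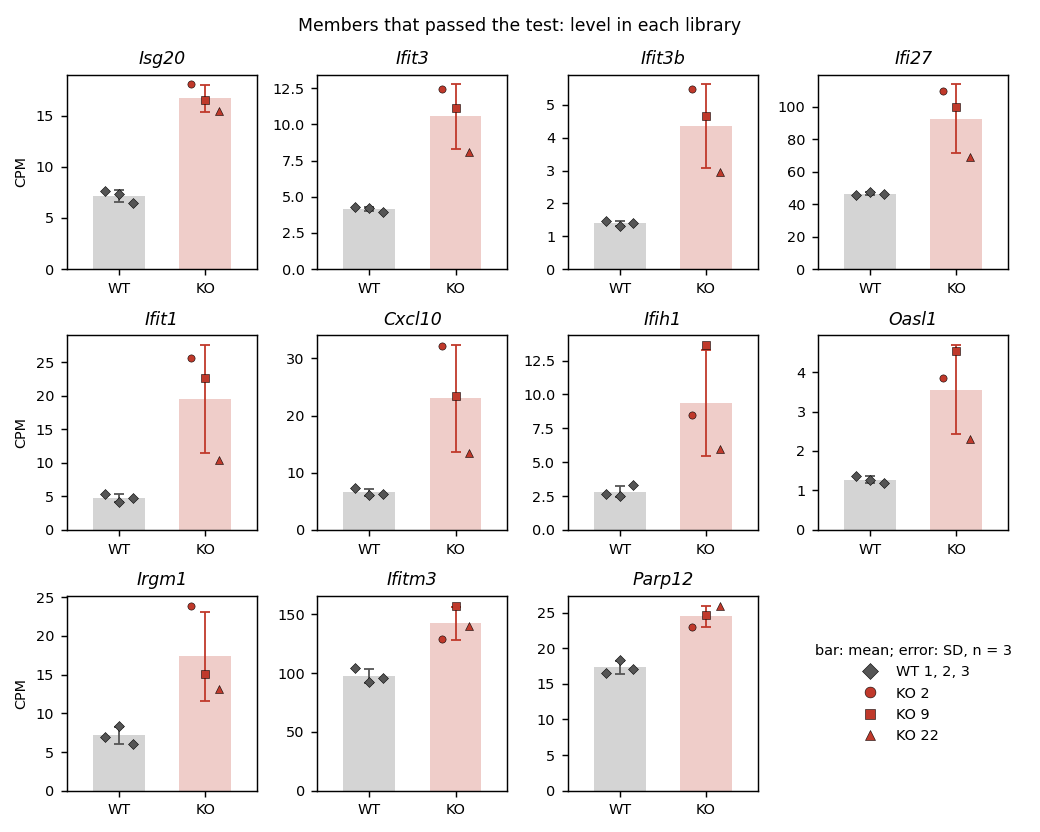
CPM of the 11 members that passed the test, by library; bars are group means, error bars the SD (n = 3), and symbols mark each library. Every red symbol lies above every grey one in all 11 panels, and the KO 22 triangle is the lowest red symbol for all except Ifitm3 and Parp12.

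Of the 9 Mx GTPases and other antiviral effectors, 1 rose. Isg20, an exonuclease that degrades viral RNA, had 467, 449 and 397 counts in WT and 1106, 1015 and 946 in KO 2, 9 and 22. Relative to their mean, these knockout libraries were the closest to each other of any called member except Parp12, and Isg20 had the smallest p of all members (1.26, SE 0.13, adjusted p = 0.00806). Its level was 7.14 ± 0.615 CPM in WT and 16.7 ± 1.34 CPM in KO (SD, n = 3). Mx2, Mx1 and Samd9l differed widely between the knockout libraries. Mx2, the cytoplasmic Mx GTPase of the mouse, is annotated as a polymorphic pseudogene. It had 26, 31 and 25 counts in WT and 414, 806 and 43 in KO (3.96, SE 0.96, adjusted p = 0.0613). Samd9l, a restriction factor of poxviruses, had 5, 17 and 23 against 406, 1014 and 24 counts (5.02, SE 1.31, adjusted p = 0.0709). Mx1, the nuclear one that blocks influenza virus, fell under the filter with 4, 0 and 0 against 48, 157 and 0 counts. In all 3, KO 2 and KO 9 were far above WT while KO 22 had 0 to 43 counts.

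Rtp4, a chaperone that restrains flaviviruses, had 100, 117 and 99 counts in WT and 334, 484 and 144 in KO (1.63, SE 0.42, adjusted p = 0.0698). Rsad2, which encodes viperin, and its neighbour Cmpk2 were low and uneven, with 2 to 19 and 15 to 22 counts in WT and 0 for both in KO 22. KO 9 had 120 and 79 counts of them, and KO 2 had 26 and 12. Bst2, which tethers budding virus, had 464 to 487 counts in WT, 617 and 981 in KO 2 and KO 9, and 389 in KO 22. Adar, the RNA editing enzyme that hides the cell's own double-stranded RNA from MDA5, had 3246, 3115 and 3220 counts against 3158, 2294 and 2398. It did not pass (-0.26, SE 0.14, adjusted p = 0.285) but did so without KO 2 (-0.40, adjusted p = 0.0485).

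Among the other members 2 rose. Cxcl10, a chemokine that attracts T cells, had 446, 376 and 384 counts in WT and 1965, 1445 and 822 in KO 2, 9 and 22 (1.84, SE 0.31, adjusted p = 0.0264). Its exons share 133 bases with Art3 on the opposite strand. Ifi27, a small membrane protein, had 2795, 2906 and 2826 against 6712, 6121 and 4207 counts (1.03, SE 0.17, adjusted p = 0.0246). It had the third highest resting level, 31.6 CPM per kilobase in WT. Ifi35 was next with 15.0, and its 1609, 1557 and 1586 counts in WT compared with 2353, 2106 and 1549 in KO. Irf1 followed with 14.0 CPM per kilobase. Xaf1, a pro-apoptotic protein, had 308, 322 and 294 against 1340, 1220 and 209 counts, so KO 22 lay below WT (1.61, SE 0.61, adjusted p = 0.159). Ifi44 had 3, 0 and 4 against 10, 53 and 10 counts (3.34, SE 1.06, adjusted p = 0.108). Lgals3bp, a secreted glycoprotein, followed no group order, with 1558 to 2357 counts in WT and 674, 3528 and 867 in KO.

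By role, the IFIT genes were the only class with every member above WT in all 3 knockout libraries. Their median log2 ratios to WT were 1.77 in KO 2, 1.57 in KO 9 and 1.02 in KO 22. The OAS family had medians of 2.41, 3.21 and 0.155, the GBP and IRG genes 1.92, 2.44 and 0.263, and the Mx and effector group 1.63, 2.18 and -0.29. The transcription factors moved less, with 0.644, 0.63 and -0.395. The summed level of all 52 members was 801, 741 and 767 CPM in WT and 1112, 1166 and 856 in KO 2, 9 and 22. Ifitm2 and Ifitm3 supplied much of it, and without them the sums were 451, 414 and 435 against 724, 762 and 456 CPM. Exons of 19 members share bases with another annotated gene, among them Ifitm2 (268 with Gm45717, same strand), Adar (1365 with Chrnb2, opposite strand), Herc6 (1269 with Gm45193, same strand) and Irf9 (123 with Rnf31, same strand), so their counts are less certain.

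Upstream of these genes, 1 of 21 interferon genes could be tested. Ifnz had 31, 21 and 18 counts in WT and 27, 45 and 23 in KO and did not pass. The other 20 had at most 3 counts over all 6 libraries together, and 13 of them had 0. Ifnb1, the interferon made by fibroblasts, had 0 counts in 5 libraries and 3 in KO 9, so interferon beta mRNA was not detectable in most libraries at this depth.

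Of 18 receptor and JAK-STAT genes 17 were tested, and their median log2 fold change was -0.06. In edgeR 1 rose and 1 fell, beside 3.54% and 3.19% of all tested genes. An unadjusted p under 0.05 was reached by 2 of them, beside 26.3% of all tested genes. The kinase Tyk2 rose, with 1052, 1104 and 1141 counts against 1654, 1646 and 1462 (0.56, SE 0.10, adjusted p = 0.0325). It did not pass with chromosome medians taken out (0.43, adjusted p = 0.124). Socs3, a feedback inhibitor of cytokine receptors, fell, with 1913, 1643 and 1921 against 943, 943 and 1216 counts (-0.78, SE 0.16, adjusted p = 0.0394). Its call was lost without KO 2 (adjusted p = 0.0580), without KO 9 (0.0629) and with chromosome medians taken out (0.0615). Ifnar1 and Ifnar2 had log2 fold changes of 0.01 (SE 0.17) and 0.15 (SE 0.10).

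None of the 21 tested genes of nucleic acid sensing passed in edgeR. An unadjusted p under 0.05 was reached by 7 of them, not far from the 26.3% of all tested genes, and DESeq2 called 5 higher and 1 lower. Aim2, a sensor of cytosolic DNA, had 2, 2 and 0 counts in WT and 59, 384 and 14 in KO (6.73, SE 1.56, adjusted p = 0.0543). Cgas, the enzyme that signals cytosolic DNA to STING, had 1171, 1286 and 1242 against 1374, 907 and 1015 counts, and Irf3 had a log2 fold change of -0.005 (SE 0.12). None of 13 genes that clear or edit nucleic acid passed in edgeR, 3 had an unadjusted p under 0.05, again near that share, and DESeq2 called 1 higher and 1 lower. Trex1, a DNA exonuclease, had 98 to 107 counts in WT and 98 to 129 in KO. Of 46 tested further interferon-induced genes 3 rose and 0 fell in edgeR, beside 3.54% and 3.19% of all tested genes, with a median of 0.42. An unadjusted p under 0.05 was reached by 19 of them (all tested genes 26.3%). Over the whole list DESeq2 called 12 higher and 1 lower. Those that rose in edgeR were the chemokine Ccl5 (127, 94 and 106 against 980, 769 and 265 counts, log2 fold change 2.64, SE 0.47), Helz2 (0.85, SE 0.16) and Trim34a (4, 0 and 2 against 26, 97 and 25 counts). Without KO 9 none of these 3 calls held (adjusted p = 0.0551, 0.0574 and 0.0578), and without KO 2 that of Helz2 was lost (0.0530). Trim34a and Aim2 had enough counts to be tested only in the knockout libraries. They entered the test through the group where they were high, as other low-count genes of these lists could. Ifi44l had at most 4 counts in any library.

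Markers of other cells were followed for the same libraries. Of 10 leukocyte markers, Adgre1, Tyrobp, Siglech and Cd3e had 0 counts in every library and Ptprc at most 2. Their summed level was 10.2 to 11.2 CPM in WT and 11.3 to 27.4 in KO, and the highest value was in KO 22, the knockout library with the lowest summed level of interferon-stimulated genes. It came mostly from Lyz2, which had 566, 529 and 1375 counts in KO 2, 9 and 22. Endothelial markers summed to 2.28 to 2.64 CPM in WT and 0.752 to 5.56 in KO, with Cdh5 and Cldn5 at 0. Epithelial markers stayed at or under 0.309 CPM and pluripotency markers at or under 0.374. The muscle list, with Pax7, Myog and Myod1 at 0, summed to 18.1 to 21.7 CPM in WT and 49.3 to 112 in KO through Acta1. The part of these markers, and of the fibroblast markers, in the results was not tested.

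The hybrid background let reads that cover strain differences be assigned to one of the parental genomes, called genome 1 and genome 2, and which strain each one is was not given. Each library had between 22359742 and 23012413 assigned counts. A change in the genome 1 share could be tested for 40 members, and 11 passed (27.5%), beside 23% of 12984 tested genes. They were Ifitm1, Ifi27, Isg20, Herc6, Parp12, Stat2, Ifit1, Ifitm3, Adar, Rtp4 and Ifit2. Whole chromosomes had other shares in KO, some in all 3 knockout libraries and some mainly in 1. Chromosome 11 was at 57.9%, 31.6% and 63.6% in KO 2, 9 and 22, beside a WT mean of 57.8%. Chromosome 4 was at 33.4%, 50.7% and 48.3%, beside 53.1%. All 11 members changed in the same direction as the rest of their chromosome, as did 32 of the 36 tested members with a share in every library. When the chromosome shares were taken out, a test chosen after seeing the data, 0 members passed, beside 0.647% of all tested genes. An unadjusted p under 0.05 was then seen for 5 members, beside 11.6% of all tested genes. The count also fell to 4 without any one of the WT libraries, when 13.2%, 13.1% and 13.4% of all tested genes passed, and to 5 without KO 2 (20%). In these fits without a WT library or without KO 2, the share of members that passed was lower than over all tested genes. Without KO 9 it was higher, with 13 of 38 members beside 3822 of 12925 tested genes. Without KO 22 it was also higher, with 10 of 40 beside 2741 of 12984.

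**Figure D4:**
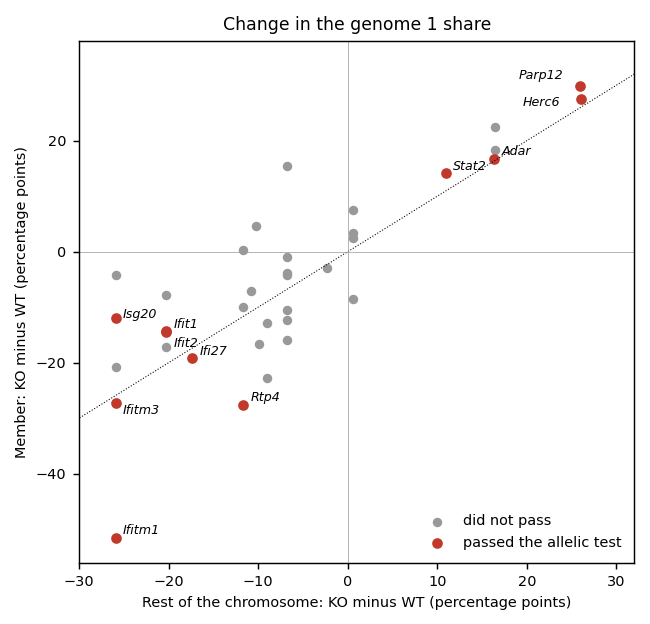
Change in the mean genome 1 share, KO minus WT in percentage points, of each of 36 tested members with a share in every library (vertical) against that of all other genes on its chromosome (horizontal); the dotted line marks equal change. The 11 members that passed lie in the lower left and upper right of the plot, and Ifitm1 at -51.5 points lies farthest from the line.

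Ifitm3 moved with chromosome 7. Its genome 1 share was 60.0%, 58.7% and 59.0% in WT and 33.6%, 32.6% and 29.9% in KO, where the rest of the chromosome was at 56.7% to 58.2% and at 31.6% to 31.9%. Ifitm1, on the same chromosome, moved further, from 91.0%, 90.9% and 87.5% to 40.0%, 42.9% and 31.9%, on 66 to 100 assigned counts in WT and 15 to 47 in KO. Its adjusted p was 0.00210, and 0.103 with the chromosome share taken out. Isg20, also there, had 28.1% ± 1.83 in WT and 16.2% ± 3.43 in KO (SD, n = 3). Parp12 and Herc6 rose with chromosome 6, from 44.4% ± 0.989 to 74.2% ± 5.67 and from 36.3% ± 4.35 to 63.9% ± 1.58 (SD, n = 3), while the rest of the chromosome was at 36.0% to 36.3% in WT and at 61.4% to 63.3% in KO.

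Among the IFIT genes on chromosome 19, Ifit1 went from 61.0% ± 4.18 to 46.7% ± 3.20 (SD, n = 3), Ifit2 from 96.6% ± 1.23 to 82.0% ± 9.91 and Ifit3 from 69.1% ± 1.26 to 51.9% ± 6.39. The mean over the rest of chromosome 19 went from 69.5% to 49.2%. Ifit3 and Ifit3b (78.3% ± 20.9 to 70.5% ± 5.63) did not pass. In Ifit2 the knockout shares were 75.3%, 77.4% and 93.4%, so KO 22 stayed nearest to WT. Rtp4, on chromosome 16, had 77.5%, 78.8% and 72.0% in WT and 42.0%, 42.4% and 61.2% in KO, and KO 22 was again nearest to WT. The mean over the rest of chromosome 16 went from 59.9% to 48.3%. Ddx58, whose change was the sixth largest and did not pass, had 70.1% to 77.7% in WT and 33.3%, 63.9% and 55.6% in KO. The rest of its chromosome 4 was at 33.36%, 50.73% and 48.25% in KO 2, 9 and 22, so it too was lowest in KO 2. Stat2 on chromosome 10 rose from 37.0% ± 2.95 to 51.1% ± 3.90, Adar on chromosome 3 from 45.5% ± 1.03 to 62.2% ± 5.79, and Ifi27 on chromosome 12 fell from 56.8% ± 2.49 to 37.6% ± 5.69 (SD, n = 3). Over the rest of these chromosomes the mean went from 36.9% to 47.9%, from 52.9% to 69.3% and from 59.5% to 42.1%. Mx1 had 9 genome 1 and 20 genome 2 counts in KO 2 and 13 and 97 in KO 9. Igtp and Iigp1 had no assigned counts.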

How the data were processed

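Gene, transcript and allele-assigned tables were used as the authors deposited them. They hold estimated counts (expected counts, whole numbers in the files), and the submitters' processing notes name HISAT2 2.1.0 and StringTie 1.3.3, beside Trimmomatic 0.36, FastQC 0.11.3, DESeq2 1.32.0 and SAMtools 0.1.19, and the build GRCm38 (mm10). The sources used here give no strand, annotation or allele-splitting settings. In the tables used, 6 columns of reads assigned to neither genome were not used.

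The counts were tested with edgeR 4.0.16 (TMM scaling, filterByExpr, quasi-likelihood test, Benjamini-Hochberg over all tested genes, threshold 0.05). The allelic test used an allele-by-group term in the same tool on genes with a mean of at least 20 assigned counts per library. Both were also run on simulated data with the same spread in both groups. Those runs cannot show how the tests behave under the unequal spread of these libraries. CPM are counts scaled to a library total of 1000000, and the log2 ratios to WT add 2 counts. The alternatives were DESeq2 1.42.0, limma-voom 3.58.1, other scalings and filters, chromosome medians taken out, and leaving out each library. Gene symbols come from the deposited table, coordinates from the GENCODE M21 annotation of GRCm38 and promoters from RefSeq.

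The members and lists were chosen with earlier results of these data known. Values in every library were given for members that passed, members whose groups did not overlap with a log2 fold change of at least 1 in size, the 3 lowest and the 5 with the highest resting level, and allelic values for members that passed, the 6 largest changes, Mx1 and the IFIT genes. Others are given by range or count. Values of some listed genes that are not members are not reported here.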

Additional observations from a re-analysis of the deposited data

How the results depend on the processing

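No paired analysis was possible because the WT columns are numbered 1, 2 and 3 and the KO columns 2, 9 and 22, so that they share only 1 number.

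Of 52 members, 11 were called with all libraries. DESeq2 called 29 and edgeR with no filter on low counts called 3. Leaving out single libraries gave 0 to 36 calls, with 0 for each WT library and 36 without KO 22. The runs without a WT library and without KO 22 also tested the members under the main filter, which were high in KO 2 and KO 9. The cause of the losses was not tested. Limma-voom, RLE scaling and library totals gave 11 each, limma-voom with group weights 15, the stricter filter 13, chromosome medians taken out 12, and Ifit3 and Ifit3b summed 10. The median log2 fold change of the members was positive in every alternative run, between 0.89 without KO 9 and 1.64 without KO 22. Isg20, Ifit3 and Ifit3b lost their calls only without a WT library, and the other 8 called members also lost them with no filter. Oasl1 was lost as well without KO 2 and without KO 9, and Parp12 without KO 9.

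Changes near 0 turned sign. Ifnar1 was at -0.020 with library totals only, -0.005 with no filter, -0.164 with chromosome medians taken out, -0.080 without KO 2 and between -0.145 and 0.137 with single libraries left out. Ifnar2 was at -0.022 with chromosome medians taken out. Irf3 was at 0.006 with the stricter filter, 0.060 with chromosome medians taken out and between -0.059 and 0.057 with single libraries left out.

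Of the members, 11 had a changed allelic ratio, 4 to 13 with single libraries left out and 0 with chromosome shares taken out. In that last fit the log2 allelic ratio changes of Ifit1 (0.43), Herc6 (-0.03), Isg20 (0.585) and Adar (-0.016) turned sign. Counts of 10 or fewer per library in WT, as for Mx1, Gbp7, Oas1a, Oas2 and Oas3, limit any fold change of these genes.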

Other observations

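Transcript estimates separate the forms of 3 members. Adar makes a longer protein, known as the interferon-inducible form, and a shorter constitutive one. The main transcript with the longer coding sequence, Adar-203 (3534 coding bases), was estimated at 1601, 1560 and 1667 counts in WT and at 1939, 1195 and 1197 in KO 2, 9 and 22. The transcript with the shorter one, Adar-202 (2790 coding bases), had 1484, 1388 and 1401 against 1090, 939 and 1027 counts, so every knockout library was below every WT library for it and not for Adar-203. These transcript values had no test.

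Mx1 and Oas1b are genes with defective alleles in common laboratory strains. Mx1-201, annotated as protein coding, was estimated at 45, 21 and 0 counts in KO 2, 9 and 22, and Mx1-203, annotated as a target of nonsense-mediated decay, at 0, 130 and 0. Oas1b-203, annotated as a polymorphic pseudogene, had 24, 21 and 25 counts in WT and 117, 161 and 17 in KO. The protein-coding Oas1b-201 had 0 counts in all 3 WT libraries, 20 in KO 2, 55 in KO 9 and 0 in KO 22.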
